A study of Mus musculus with 6 samples.

Results

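Rassf1 and its partners in the Hippo growth pathway were followed in the lungs of leptin-treated and saline-treated ob/ob mice. The named genes were Rassf1, Stk3, Stk4, Sav1, Lats1, Lats2, Yap1, Tead1 and Mob1a. Probe sets were taken where the platform annotation gives 1 symbol, which found 8 of these 9 genes, with 17 probe sets, among 12393 genes and 22626 probe sets on the array. No probe set carries Stk3 in the annotation, and it was not analysed here. A further probe set shared by Lats2 and another gene was left out. Rassf1 was picked because its values were lower with leptin, so its difference between the groups is given as a description and was not tested. The partners were named for their place in the pathway.

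The animals were B6.V-Lepob/J females 1 month old, homozygous for the ob mutation of the leptin gene in both groups. Lung RNA of 3 mice given leptin and of 3 mice given saline was hybridised to Affymetrix Mouse 430A arrays, 1 array per mouse. Because every animal lacks functional leptin, the saline group stands for the deficient state and holds no lean control. The labels state no dose, route or duration of treatment.

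The Hippo pathway limits organ growth. The kinases Stk3 and Stk4 (Mst2 and Mst1), held by the scaffold Sav1, phosphorylate the kinases Lats1 and Lats2 and their co-activator Mob1a. Active Lats kinases phosphorylate Yap1, which is then kept in the cytoplasm or degraded, and unphosphorylated Yap1 enters the nucleus and drives growth genes through Tead factors such as Tead1. Rassf1 binds the Stk kinases through a shared SARAH domain, stabilises microtubules and is a tumour suppressor whose upstream promoter is often silenced by methylation in human lung cancer. These steps act largely on proteins, and the arrays measured only transcripts.

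Saline replicate 1 stood apart from the other 5 arrays and was kept separate. Across probe sets its log2 values had correlations of 0.440 to 0.449 with those of the other arrays, which reached 0.973 to 0.978 among themselves. Its hybridisation controls had a median ratio of 29.3 to the remaining arrays, where that ratio was 0.931 to 1.13. The Y-linked gene Uty read 1108 on it for its brighter probe set and 12.7 to 67.3 on the others, although all animals are labelled female. Its other probe set read 302 there and 20.9 to 72.5 on the others. Eif2s3y, also Y-linked, read 84.9 there, below that array's median of 324, and 1.2 to 3.4 on the others. The sex of the animal was not tested. On the other 5 arrays the summed intensity of 8 tested alveolar type II markers lay between 99689 and 112060 with leptin and at 113482 and 113606 with saline, so the labelled tissue was borne out by its surfactant genes. Saline replicate 1 reached 14969 for the same sum. Each comparison below therefore sets 3 leptin arrays against saline replicates 2 and 3, and the values with all 6 arrays follow.

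Rassf1 has 2 start-site windows in the RefSeq promoter table of GRCm38.p6, both on the plus strand of chromosome 9, and they are shown because the gene's single probe set does not tell which start gave the measured RNA. In human cells the upstream start gives the RASSF1A transcript and the downstream one RASSF1C. Each window spans 250 bases before to 50 after the start and is printed 5′ to 3′ with CpG pairs in capitals.
Rassf1 upstream start, chr9:107551305-107551604, plus strand: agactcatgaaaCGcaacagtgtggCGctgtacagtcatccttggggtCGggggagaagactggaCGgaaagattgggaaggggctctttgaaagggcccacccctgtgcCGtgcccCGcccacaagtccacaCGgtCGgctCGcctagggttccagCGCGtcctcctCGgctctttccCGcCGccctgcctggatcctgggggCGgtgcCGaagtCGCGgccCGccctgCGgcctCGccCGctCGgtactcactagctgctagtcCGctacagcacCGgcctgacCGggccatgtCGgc
Rassf1 downstream start, chr9:107554333-107554632, plus strand: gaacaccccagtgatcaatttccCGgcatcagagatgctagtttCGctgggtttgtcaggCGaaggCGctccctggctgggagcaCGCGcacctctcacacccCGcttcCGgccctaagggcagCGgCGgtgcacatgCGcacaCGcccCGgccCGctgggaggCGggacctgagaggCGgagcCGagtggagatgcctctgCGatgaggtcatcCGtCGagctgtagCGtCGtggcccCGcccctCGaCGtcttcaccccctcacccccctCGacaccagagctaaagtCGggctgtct
Both windows hold 27 CpG pairs, against a median of 7 over 32851 promoters of that length, and their GC content was 67.0% and 66.3% against a median of 52.7%. Neither holds GGAATG, the core sequence bound by Tead factors, or TTCNNNGAA, the Stat consensus (both strands searched).

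GGAATG or its reverse complement occurred in 4 of the 9 start-site windows found for 7 of the members, those of Sav1, Lats2, Yap1 and Mob1a, and in 14.7% of all promoters. The Stat consensus occurred in 0 of the 9 and in 8.30% of all promoters. These shares were not tested or matched for GC content, and binding at the matches was not measured. Each match of the Tead core is shown within 30 bases of the gene's own strand, with the match in capitals.
Sav1, chr12:69987091-69987120, minus strand: cggctttcccagCATTCCcagcggcgcggg
Lats2, chr14:57746102-57746131, minus strand: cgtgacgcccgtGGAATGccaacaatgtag
Yap1, chr9:8004720-8004749, minus strand: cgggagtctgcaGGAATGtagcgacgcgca
Mob1a, chr6:83325818-83325847, plus strand: tggccagaatagCATTCCtttaggagaaga
The matches lie 106, 141 and 209 bases before the start in Sav1, Yap1 and Mob1a and 4 bases after it in Lats2. Tead1 and Stk3 have no entry in the table.

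Rassf1 (Entrez Gene 56289, probe set 1448855_at; linear intensity) read 214, 261 and 154 in leptin-treated lungs, against 738 and 644 on saline replicates 2 and 3. All 3 leptin values lay below both saline values, as they did for 9.66% of all tested probe sets. The leptin mean was 210 ± 53.7 (SD, n = 3) and the mean of the saline pair was 691 ± 66.6 (SD, n = 2). Across the 6 leptin and saline pairs the saline value was 2.47 to 4.80 times the leptin value. On the log2(intensity + 22.0) scale the difference, leptin minus saline, was -1.65 ± 0.21 (SE), the second lowest of 15838 probe sets tested. It ranged from -1.80 to -1.46 when any 1 of the 5 arrays was left out. With the replicate number as a block it was -1.67, the same estimate as without leptin replicate 1. That array has no saline array of its number among the 5, so the block is no separate check of the estimate. Saline replicate 1 read 353, between the leptin and the other saline values and 1.35 to 2.30 times each leptin value. With it the difference was -1.34 ± 0.37, and the groups still did not overlap, as for 4.10% of probe sets lower with leptin on 6 arrays. Only this probe set measures Rassf1 here, so no second reading of the gene was at hand.

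**Figure D1:**
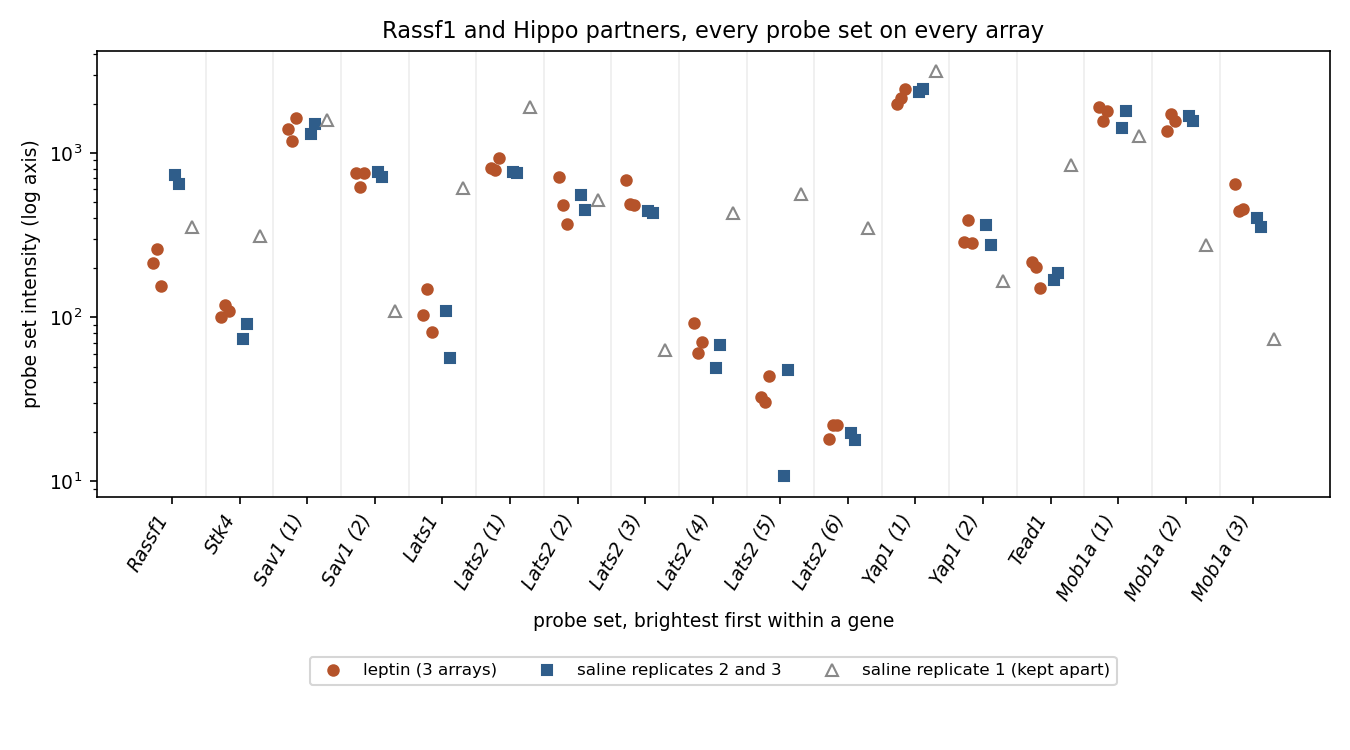
Probe set intensity on a log axis for each of the 17 probe sets of Rassf1 and 7 Hippo partners, numbered from the brightest within a gene. Circles are the 3 leptin arrays, squares saline replicates 2 and 3, and open triangles saline replicate 1. Circles and squares separate widely for Rassf1, at 154 to 261 with leptin and 644 to 738 with saline, and lie close together or overlap for the partners, while the triangles scatter above and below.

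The genes with a pattern most like that of Rassf1 were sought over the same 5 arrays among 9364 other tested genes, by the Euclidean distance between log2 profiles centred on their means. The nearest were Gnmt, a glycine methyltransferase, at 0.48, Alas2, the erythroid enzyme that starts haem synthesis, at 0.52, Bpgm, a red cell enzyme, at 0.59, Agpat5, an acyltransferase, at 0.62, and Slc25a37, a mitochondrial iron importer, at 0.66. The median distance was 1.89, and a profile flat over the 5 arrays would lie at 1.87. All 5 were lower with leptin on every array, with log2 differences of -1.25, -1.20, -1.16, -1.78 and -1.20. Their direction follows from the search, since Rassf1 was picked for lower values with leptin on these arrays. None of the Hippo partners was among them, which likewise follows from their small differences. The partners' distances ran between 1.79 for Yap1 and 2.25 for Stk4. Only that of Yap1 was below the median, and the others began at 1.92 for Tead1.

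Some red cell transcripts were lower with leptin alongside Rassf1. Of 24 erythroid markers listed, 18 have a probe set and 13 were tested, with 7 lower and 6 higher (median log2 difference -0.26). Alas2, Bpgm and Slc25a37 passed the limma threshold of 0.05 on the adjusted p, at 0.0496 each (0.0534% of tested genes did). At an unadjusted p under 0.05 in limma, 5 of the 13 were lower (2.02% of tested genes were). Alas2, Bpgm and Slc25a37 had already come up in the search for profiles like that of Rassf1. The marker list was chosen with earlier results of these data known, so these shares only describe it. Fech and Slc4a1 were at -0.79 ± 0.17 and -0.70 ± 0.25. The erythroid transcription factors Klf1 and Gata1, which read only 97.9 to 175 on the 5 arrays, were at 0.11 ± 0.23 and 0.10 ± 0.26. These 4 were singled out after their values were seen. The 13 markers summed to 7595, 9359 and 9469 on the leptin arrays, against 18996 for saline replicate 2 and 15045 for saline replicate 3, and no marker was listed at 0. Saline replicate 1 summed to 6007, with Alas2 at 42.2, while its Rassf1 value was above all 3 leptin arrays, and with it 0 of the 13 passed, Alas2 and Slc25a37 turning to 1.12 and 0.27. The 3 calls were also lost with quantile normalization, a common median or the replicate block, where 0 of all probe sets passed. The part of red cells in the Rassf1 difference was not tested. In whole lung, fewer cells of a type and less RNA per cell cannot be told apart.

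**Figure D2:**
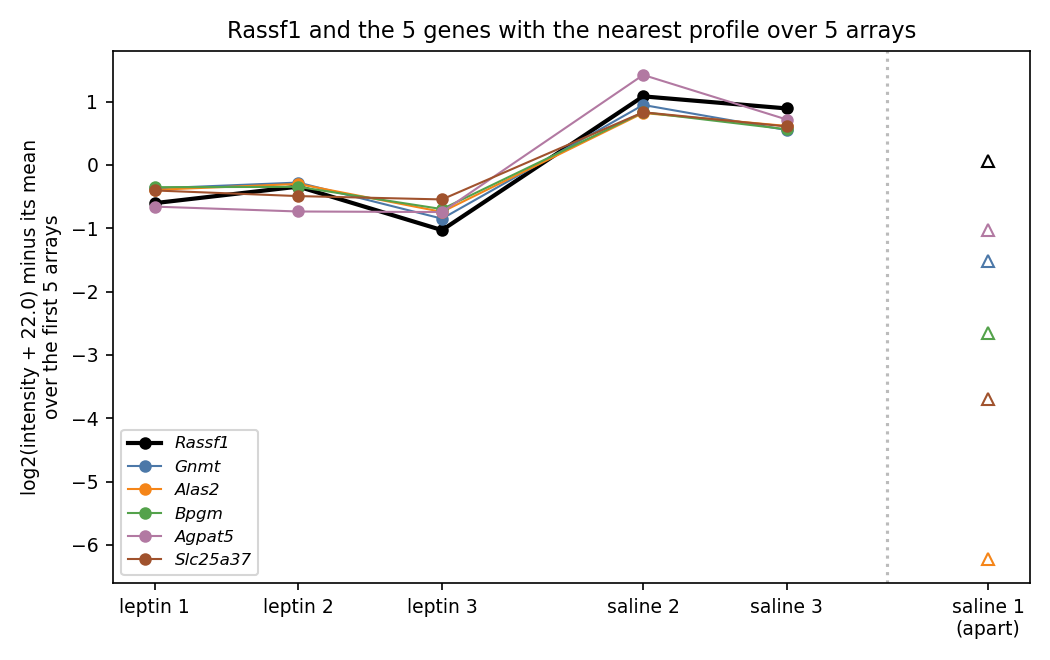
Log2(intensity + 22.0) minus its mean over the first 5 arrays, for Rassf1 (thick black line) and the 5 genes with the nearest profile, on each leptin and saline array. Lines join the 5 arrays compared, and open triangles show saline replicate 1. The 6 genes lie below their mean on the leptin arrays and spread widely on saline replicate 1, where Alas2 read 42.2 and Rassf1 353.

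Of the upstream kinase complex, Stk4 and Sav1 were measured. Stk4, the Mst1 kinase, read 100.1, 119 and 109 with leptin, against 73.3 and 90.2 on saline replicates 2 and 3. Its log2 difference was 0.34 ± 0.26, and although the groups did not overlap the limma adjusted p was 1.00, with a 95% interval of -0.23 to 0.91. Sav1, the scaffold of the Stk kinases, read 1398, 1186 and 1642 with leptin, against 1298 and 1505 with saline, on its brighter probe set. The leptin values span both saline values, and the difference was 0.00 ± 0.16, with a 95% interval of -0.35 to 0.35. The second Sav1 probe set was at -0.06 ± 0.15. It read 619 to 759 with leptin and 765 and 715 with saline. Neither Sav1 probe set thus separated the groups.

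Mob1a, which binds and activates the Lats kinases, has 3 probe sets that spread most among those of any partner. The brightest read 1913, 1575 and 1796 with leptin, against 1418 and 1809 with saline, a difference of 0.13 ± 0.15, which turned to -0.043 without saline replicate 2. The next read 1364, 1723 and 1556 with leptin, against 1674 and 1559 with saline, a difference of -0.07 ± 0.14. Both overlapped between the groups. The dimmest read 643, 442 and 456 with leptin, against 402 and 354 with saline. Here all leptin values were the higher ones, at 0.40 ± 0.19, with a 95% interval of -0.01 to 0.82 and the smallest unadjusted p of any partner (limma, 0.056, adjusted p = 1.00). Probe sets of the same gene thus gave differences from -0.07 to 0.40.

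The Lats kinases, which phosphorylate Yap1, were measured by 7 probe sets. Lats1 read 103, 149 and 81.1 with leptin, against 109 and 56.6 with saline. The groups overlapped, and its difference of 0.36 ± 0.33 became -0.012 without saline replicate 3. The brightest Lats2 probe set read 806, 789 and 936 with leptin, against 767 and 755 with saline. All leptin values were higher there, by 0.14 ± 0.14 on the log2 scale. A second Lats2 probe set overlapped, with 713, 482 and 369 with leptin against 554 and 446 with saline, at 0.02 ± 0.24. The dimmest of those tested read 684, 491 and 481 with leptin, against 446 and 429 with saline. It did not overlap, at 0.30 ± 0.18. The limma adjusted p was 1.00 for each of these 4 probe sets. The other 3 Lats2 probe sets were dim, at 18.2 to 92.7 with leptin and 10.7 to 67.3 on saline replicates 2 and 3, and fell below the filter on low values. Lats2 is itself a known target gene of Yap1 in human cells.

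Yap1, the co-activator that the pathway restrains, read 1991, 2147 and 2447 with leptin, against 2355 and 2450.0 with saline, on its brighter probe set. The highest leptin array lay between the saline arrays, and the difference was -0.13 ± 0.13 with a 95% interval of -0.42 to 0.16. The dimmer probe set read 287, 389 and 285 with leptin, against 362 and 276 with saline. It overlapped as well, at 0.00 ± 0.20. Tead1, the DNA-binding partner of Yap1, read 218, 202 and 151 with leptin, against 169 and 185 with saline. The saline values lay within the leptin range, at a difference of 0.08 ± 0.22, which turned to -0.016 without leptin replicate 1. The replicate block gave that same estimate, since leptin replicate 1 has no saline array of its number here. No probe set of Yap1 or Tead1 thus separated the groups. Over all tested probe sets, 9.92% did so with higher and 9.66% with lower values on leptin.

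None of the 13 partner probe sets tested passed the adjusted threshold, where 0.0442% of the 15838 probe sets did (limma, 5 arrays), and none reached an unadjusted p under 0.05, against 4.60% of all. With the replicate number as a block, 0 of the 15838 passed. None met the rule stated by the series (at least 1.5-fold with a p under 0.05, in most pairwise comparisons of arrays), which 0.492% of all did on 5 arrays and 0.202% on 6. The 13 probe sets, of 7 genes, were higher in 9 cases and lower in 4, from -0.13 to 0.40 with a median of 0.08, beside 0.00 over all tested probe sets. By gene, at the brightest probe set, 5 of 7 were higher with a median of 0.13. The groups did not overlap for 4 of the 13, all higher with leptin (1 of Stk4, 2 of Lats2 and 1 of Mob1a), against 9.92% of all probe sets on that side. None was lower without overlap, against 9.66%. For 9 of the 13 the 95% interval, not adjusted for the number of probe sets, lay within a 1.5-fold change either way. For Stk4, Lats1, the dimmest tested Lats2 and the dimmest Mob1a probe set it reached beyond it.

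**Figure D3:**
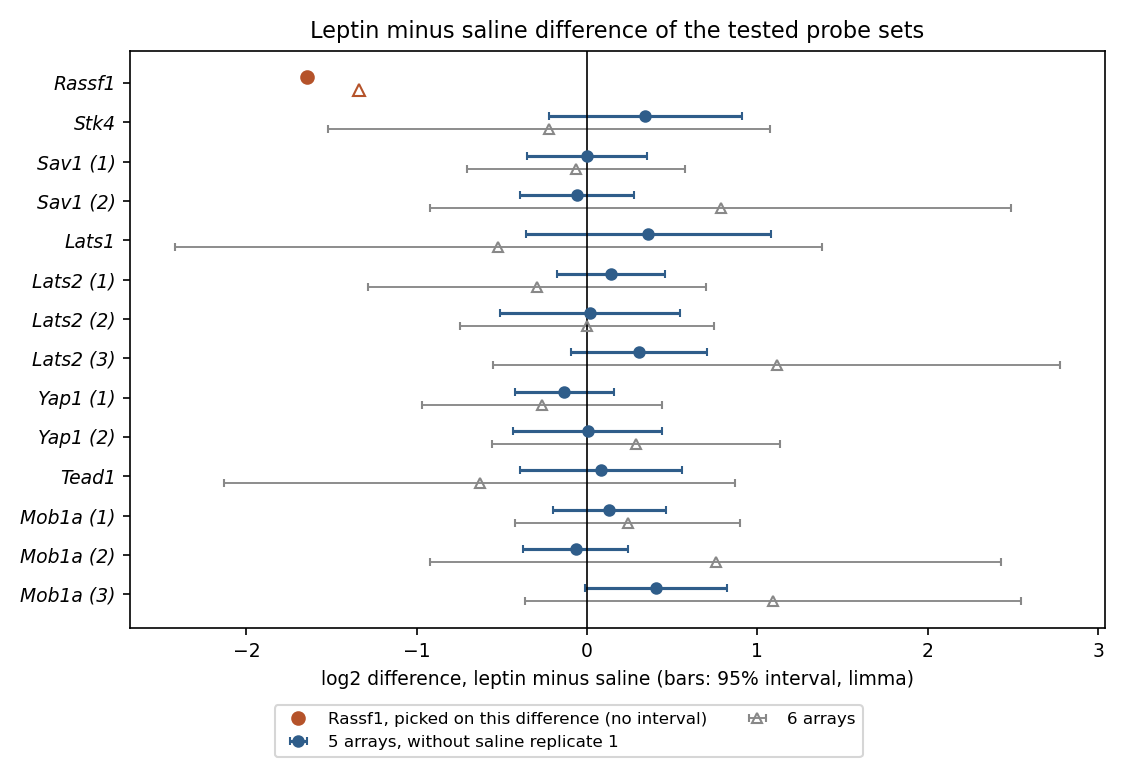
Log2 difference, leptin minus saline, of the 14 tested probe sets. Filled circles are from 5 arrays and open triangles from 6, with 95% intervals from limma for the partners and none for Rassf1, which was picked on this difference. On 5 arrays the partners lie between -0.13 and 0.40 with intervals that all hold 0, Rassf1 lies at -1.65, and with saline replicate 1 every partner interval widens.

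With all 6 arrays, the comparison the study designed, again 0 of the 13 partner probe sets passed the adjusted threshold, where the share over all probe sets was 0% (0.385% at an unadjusted p under 0.05, and 0 partners). The adjusted p ran from 0.715 to 1.00. On saline replicate 1 the partners' probe sets went both ways: Lats1, Tead1 and Stk4 read 610.2, 849 and 313 there, above every other array, whereas the dimmer Sav1, the dimmest tested Lats2 and the 2 dimmer Mob1a probe sets read 110, 63.3, 274 and 73.6, below every other array. Of the 17 probe sets of Rassf1 and its partners, 8 were above and 6 below all other arrays. Over all tested probe sets 88.9% lay outside the range of the others on that array, and 78.6% of the 14 tested members did. The sign of Stk4, Lats1, Tead1 and the brightest Lats2 probe set accordingly turned to -0.22, -0.52, -0.63 and -0.29. The dimmer Sav1 and the second brightest Mob1a probe set turned the other way, from -0.06 to 0.78 and from -0.07 to 0.76. The second Lats2 probe set went from 0.02 to -0.0003. The dimmest tested probe sets of Lats2 and Mob1a moved to 1.11 and 1.09. The last 2 are the ones whose groups did not overlap on 6 arrays, both higher with leptin, where 5.00% of all probe sets were.

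The wider pathway was read from lists in which a gene is represented by its brightest tested probe set, beside a median of -0.01 over 9365 tested genes. No gene of these lists passed the adjusted threshold on 5 arrays, which 0.0534% of all tested genes did. Of 13 tested activators of the kinases, 5 were higher and 8 lower with a median of -0.04. For 7 of the 13, tested probe sets of the same gene had opposite signs, so such counts depend on the probe set chosen. Tjp1, a tight junction scaffold, read 4790 to 5127 with leptin and 6034 and 5745 with saline, and Taok3, a kinase upstream of Stk4, 510 to 572 with leptin and 601 and 707 with saline. Both were lower on every leptin array, as 10.4% of tested genes were, by -0.23 ± 0.11 and -0.28 ± 0.15 (limma adjusted p = 1.00 each), and other Taok3 probe sets were at -0.08 and 0.02. With saline replicate 1 the sign of Tjp1 turned, to 0.49. The 11 tested inhibitors of the kinases, mostly of the STRIPAK phosphatase complex, were 5 higher and 6 lower (median -0.01), with Sike1 at 0.17 ± 0.14 and Strn at 0.26 ± 0.23. Probe sets of the same gene had opposite signs for 4 of the 11. Mob1b and Stk38, paralogues of Mob1a and the Lats kinases, were at -0.03 ± 0.16 and 0.00 ± 0.14. With saline replicate 1 the inhibitors' median was 0.31 (9 higher and 2 lower), Strn turned to -0.24, and Mob1b and Stk38 moved to 1.04 and 1.11.

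Genes acting on Yap1 and beyond it were divided between higher and lower values. Of 10 proteins that hold phosphorylated Yap1 or mark it for degradation, 4 were higher and 6 lower (median -0.06, and 5 and 5 with quantile normalization). For 8 of the 10, tested probe sets of the same gene had opposite signs, so these counts depend on the choice of the brightest. Btrc, a ubiquitin ligase adaptor, was at 0.38 ± 0.20 and the 14-3-3 gene Ywhaz at 0.19 ± 0.13, with other Ywhaz probe sets between -0.47 and 0.37. With saline replicate 1 the median of the 10 was -0.48 (3 higher and 7 lower), Btrc turned to -0.15 and Ywhaz moved to 1.75. Of the co-activator Wwtr1 (Taz), other Tead factors and Vgll cofactors 4 were tested, 2 higher and 2 lower (median -0.03). Tead2 was at -0.23 ± 0.22, Vgll4 at 0.18 ± 0.17 and Wwtr1 at -0.17 ± 0.17, and with saline replicate 1 these 3 turned to 0.16, -0.17 and 0.60. The 18 tested transcriptional targets of Yap and Taz, a list known from human tumour cells, were 9 higher and 9 lower with a median of 0.00. Some were already counted above by the same probe set, Lats2 as a partner and Amotl2 and Ptpn14 as activators. Probe sets of the same gene had opposite signs for 4 of the 18. Ccdc80, a matrix protein, was at 0.27 ± 0.14 and Ankrd1, a muscle ankyrin repeat protein, at -0.18 ± 0.16. The matricellular targets Ccn2 and Ccn1, singled out after their values were seen, were at 0.15 ± 0.17 and 0.02 ± 0.15. None of the 18 reached an unadjusted p under 0.05 in limma, which 4.30% of tested genes did. With saline replicate 1 the target median was 0.17, with 14 of 18 higher.

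**Figure D4:**
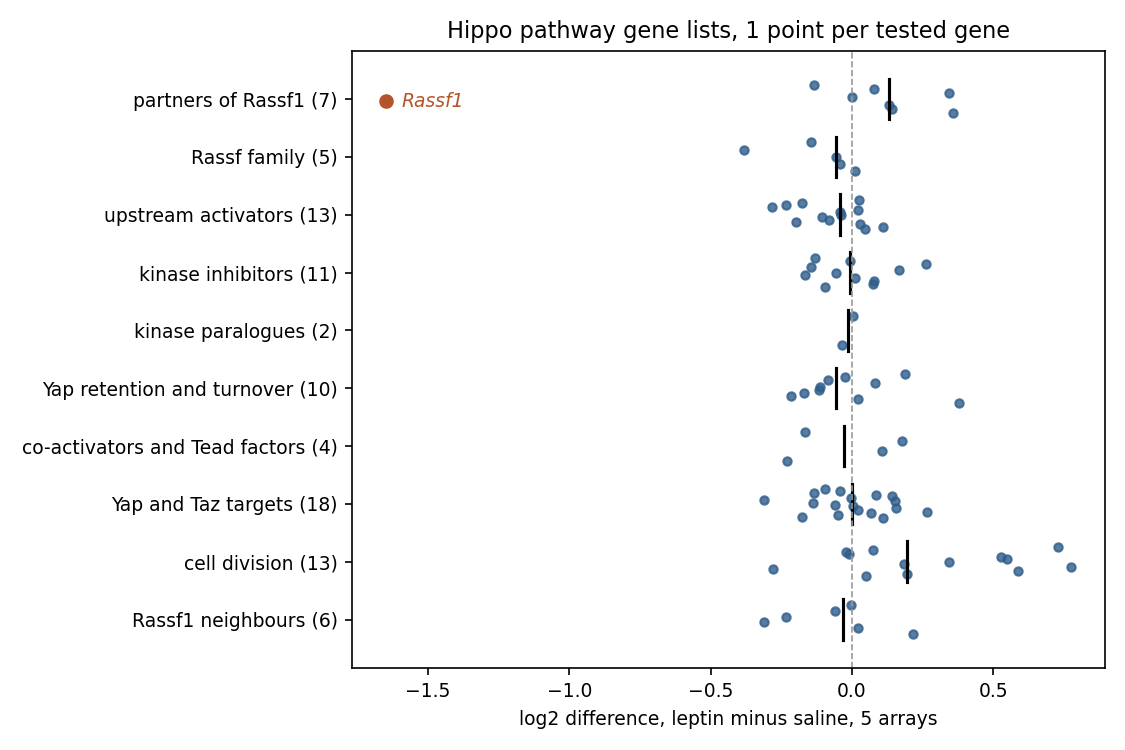
Log2 difference, leptin minus saline on 5 arrays, with 1 point per tested gene in each list and the number tested in brackets. Vertical bars are list medians, the first without Rassf1. Medians lie between -0.06 and 0.20, with the partners at 0.13 by gene and the cell division genes at 0.20, and Rassf1 stands alone at -1.65.

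Other members of the Ras association domain family had differences from -0.38 to 0.01. Of 5 tested, 1 was higher and 4 lower (median -0.06), and under a common median or quantile normalization all 5 were lower. Probe sets of the same gene had opposite signs for 2 of the 5. Rassf7, an N-terminal family member without the SARAH domain, read 1114, 1139 and 1170 with leptin, against 1521 and 1467 with saline. All leptin arrays were lower, by -0.38 ± 0.13 on the log2 scale (limma unadjusted p = 0.012, adjusted p = 0.970), and saline replicate 1 read 1438, also above them. At that unadjusted threshold 2.02% of tested genes were lower. Rassf8 was at -0.14 ± 0.17 with overlap. Rassf2, Rassf3 and Rassf5, relatives with the SARAH domain, were at 0.01, -0.04 and -0.06.

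Genes around Rassf1 on chromosome 9 in the RefSeq annotation were read from a list of that stretch. Of 12 listed genes 9 have a probe set and 6 were tested, 2 higher and 4 lower (median -0.03), with 0 at an unadjusted p under 0.05 in limma. The genes directly beside it, Zmynd10 and Tusc2, were not among them, the first being below the filter and the other without a probe set. Hyal2, a hyaluronidase gene, read 1294, 746 and 790 with leptin, against 1418 and 914 with saline, and the groups overlapped, at -0.31 ± 0.25. Nprl2, a regulator of mTORC1, was at -0.06 ± 0.16 and Ifrd2 at -0.23 ± 0.23, both singled out after their values were seen. The tested genes nearest to Rassf1 on either side, Nprl2 and Hyal2, were thus lower by point estimate, while Cyb561d2 was at 0.22 ± 0.18. On 6 arrays Hyal2 was at 0.38, Ifrd2 at 0.85 and Cyb561d2 at -0.13.

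Cell division genes, whose expression follows growth, were higher in 10 of 13 tested cases with a median of 0.20. Of the 19 listed genes with a probe set, 6 fell below the filter on low values, Cdk1 and Bub1 among them. Top2a, the topoisomerase of dividing cells, read 230, 249 and 229 with leptin, against 149 and 119 with saline, and Birc5, a mitotic survival protein, 165, 104 and 145 with leptin, against 79.5 and 86.8 with saline. Neither overlapped, as for 9.51% of tested genes higher with leptin. The differences were 0.73 ± 0.20 and 0.59 ± 0.26, with limma adjusted p of 0.706 and 1.00 (unadjusted p = 0.004 and 0.048), and these 2 of 13 compare with 2.29% of all tested genes that were higher at that unadjusted threshold. Mki67, the proliferation marker, singled out after its value was seen, was at -0.01 ± 0.28. With saline replicate 1 the list's median turned to -0.36 with 5 of 13 higher, and Top2a was at 0.36. The Birc5 probe set fell below the filter on 6 arrays.

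Markers of other lung cells moved in part with the groups and are given beside the growth genes. All 10 fibroblast and smooth muscle markers were higher with leptin (median 0.46), 6 at an unadjusted p under 0.05 in limma (2.29% of tested genes were higher at it) and 0 past the adjusted threshold. Their summed intensity was 29998 to 31645 on the leptin arrays, against 24609 for saline replicate 2 and 22911 for saline replicate 3. Of the B cell markers 7 of 8 were higher (median 0.34), of the T and NK cell markers 5 of 6 (median 0.19) and of the neutrophil markers 8 of 8 (median 0.33). Their sums were 1798 to 2413, 961 to 1234 and 4682 to 7881 with leptin. On saline replicates 2 and 3 the B cell sums were 1768 and 1572, the T and NK cell sums 1005 and 746, and the neutrophil sums 6596 and 3936. The medians were -0.09 for alveolar type II, 0.02 for alveolar type I, -0.07 for club and ciliated, 0.06 for endothelial and 0.12 for macrophage markers. Once saline replicate 1 was included, the medians were -0.04 for B cell markers, with 4 of 8 higher, and -0.06 for T and NK cell markers, with 2 of 6 higher. Those of fibroblast and smooth muscle, neutrophil, endothelial and macrophage markers were 0.96, 0.27, 0.81 and 0.26, and those of alveolar markers 0.99 for type II and 0.44 for type I, with club and ciliated markers at 0.29. No marker was listed at 0 in any of these lists. The part of these cells in the values of the Hippo and cell division genes was not tested.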

How the data were processed

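The deposited values are intensity readings on a linear scale, with a column for each array. The software and its summary method are not stated in the labels. A mean trimmed by 2% at each end lay between 500.10 and 500.14 on every array. The 64 control probe sets were left out. Gene names came from the platform annotation and sequences from RefSeq (GRCm38.p6). No build is named for the arrays. Values became log2(intensity + 22.0), 22.0 being the 10th percentile, which understates changes of dim probe sets. The lowest 30% by mean log2 value were left out of each fit. On the remaining 15838 a linear model was fitted in limma 3.58.1 under R 4.3.3 (trended variance prior, two-sided, Benjamini-Hochberg over all tested probe sets), and the fit was tested on simulated data.

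Same-numbered arrays deviated together from their group means (correlations of 0.103 to 0.144 for all 3 pairs), so the numbers were treated as a possible pairing, which no label states. Differently numbered pairs had correlations of -0.147 to 0.049. The saline mean included saline replicate 1, and deviations within a group cancel out, so these correlations are not independent and cannot decide the pairing. The members, the 20 gene lists and the tests were chosen with earlier results of these data known. In each pathway list the genes past the threshold, or otherwise the 2 with the smallest p, were named. Alternatives were quantile normalization, a common median, other pseudocounts and filters, the replicate block, no variance trend, array weights, the rule stated by the series, and each array left out. For arrays, their number limits the precision.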

Additional observations from a re-analysis of the deposited data

How the results depend on the processing

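The count of probe sets passing the threshold on 5 arrays, 7 in the comparison as reported, was 0 when the replicate block was added, the filter or the variance trend was dropped, the pseudocount was 1, or values were brought to a common median or the same quantiles, 78 by the rule stated by the series, and 0 to 3 without 1 further array. On 6 arrays it was 0, with 8 under array weights, 32 by the series' rule, and 0 to 7 without 1 array. The count of partner probe sets passing was 0 under every one of these settings on 5 and on 6 arrays. Rassf1 was lower in all of those run on 5 arrays and with saline replicate 1 included, between -1.80 and -1.34. At the brightest probe set of each gene, including saline replicate 1 reversed Stk4 (-0.22), Lats1 (-0.52), Lats2 (-0.29) and Tead1 (-0.63), all of which read far higher on that array. The dimmer Sav1 and the second brightest Mob1a probe set reversed the other way, to 0.78 and 0.76. Tead1 also reversed without leptin replicate 1 and so with the replicate block, which gives the same estimate (-0.016). Sav1 reversed with quantile normalization (0.010). Without 1 array the range was -0.12 to 0.12 for Sav1, -0.012 to 0.73 for Lats1, -0.016 to 0.22 for Tead1 and -0.043 to 0.30 for Mob1a. The Lats1 range leaves out the fit without leptin replicate 2, where Lats1 and Stk4 fell below the filter. With the filter at 50%, Lats1, Stk4 and Tead1 were not tested. No partner passed the threshold under the replicate block either. The 3 dim Lats2 probe sets were compared only when the filter was dropped. On 5 arrays they were then at 0.26 ± 0.27, 0.26 ± 0.34 and 0.07 ± 0.20, from the brightest to the dimmest.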
